A study of Mus musculus with 12 samples.

Results

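The aryl hydrocarbon receptor (AHR) axis was described here through 7 genes: the receptor Ahr, its partner Arnt, the repressor Ahrr, and the target genes Cyp1a1, Cyp1b1, Tiparp and Aldh3a1. Every probe whose gene symbol was one of these names was taken, which gave 8 probes for 7 of the 16593 named genes on the array: 2 for Arnt and 1 for each of the others. Lung tissue of female C57BL/6N mice was measured on 12 Illumina mouse bead arrays, 3 in each of 4 groups. The groups were mice treated with cigarette smoke and control mice, each at 4 months and at 6 months of age. The labels call the arrays of a group biological replicates and give no dose, device or length of exposure. The title of the series concerns smoke-induced lymphoid tissue and macrophage activation in chronic obstructive pulmonary disease.

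AHR is a transcription factor that waits in the cytosol in a complex with chaperones until it binds a small aromatic molecule, such as a polycyclic aromatic hydrocarbon of cigarette smoke. It then enters the nucleus, pairs with ARNT and binds DNA elements that hold the letters GCGTG, from which it raises the transcription of drug-metabolising enzymes. Its target genes include 2 of its own brakes: AHRR, which competes for ARNT and the DNA element, and TIPARP, which marks AHR with ADP-ribose. In the lung, CYP1A1 and CYP1B1 are the enzymes best known for responding to smoke.

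Cyp1b1 rose in smoke-exposed lungs at both ages, 2.13-fold at 4 months and 2.36-fold at 6 months, with no overlap between smoke and control arrays. The dim Ahrr rose at 6 months. Its change at 4 months missed the threshold, and the average over both ages passed it. Neither Arnt nor Aldh3a1 passed the test in any comparison. The probes for Cyp1a1 and for Ahr itself were detected on none of the 12 arrays and that for Tiparp on 2, so these 3 genes were not part of the fit.

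The promoters of the genes that rose, and that of Cyp1a1, the usual marker of AHR activity, are shown to place the letters GCGTG near the start. RefSeq gave promoter sequences (mouse build GRCm38.p6) for 5 of the 7 genes, and the 250 bases before each annotated start were searched for GCGTG on both strands, so also for CACGC. No motif match overlapped another. The sequences run 5′ to 3′ on the gene's strand, with each match in capitals.
Cyp1b1, minus strand, chr17:79715062-79715311: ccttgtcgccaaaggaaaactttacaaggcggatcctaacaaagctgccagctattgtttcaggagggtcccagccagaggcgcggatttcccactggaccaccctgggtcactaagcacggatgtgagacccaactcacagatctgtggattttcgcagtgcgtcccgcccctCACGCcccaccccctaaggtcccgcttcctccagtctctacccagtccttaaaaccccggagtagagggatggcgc
Ahrr, minus strand, chr13:74292332-74292581: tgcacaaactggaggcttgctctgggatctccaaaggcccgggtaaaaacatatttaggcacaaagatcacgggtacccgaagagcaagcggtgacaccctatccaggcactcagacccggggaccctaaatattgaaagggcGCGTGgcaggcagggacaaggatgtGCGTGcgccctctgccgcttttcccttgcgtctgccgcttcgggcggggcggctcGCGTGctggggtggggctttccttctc
Cyp1a1, plus strand, chr9:57697363-57697612: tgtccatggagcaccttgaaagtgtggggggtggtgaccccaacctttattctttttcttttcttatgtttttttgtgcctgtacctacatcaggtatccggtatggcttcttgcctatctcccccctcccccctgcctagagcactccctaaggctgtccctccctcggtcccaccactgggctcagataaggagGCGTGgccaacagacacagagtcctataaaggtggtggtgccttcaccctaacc
The Cyp1b1 window held 1 match, on the reverse strand, with its first base at -76 from the start. The Ahrr window held 3, at -107, -82 and -27. The Cyp1a1 window held 1 at -54. Arnt had 1 at -29 and Tiparp 1 at -170, and these 2 windows are not printed. All 5 windows held the letters. Of the 27025 windows in the table, 28.2% did (7624 windows). The 5 genes were chosen as members of the axis, so their count is not read against that share. Windows with at least 3 matches, as for Ahrr, made up 2.80% of the table. Ahrr too was chosen as a member, so its matches are not read against that share either. Hypoxia-inducible factors, which also pair with ARNT, bind elements that share these letters. A match is a run of letters and not a measured binding site. Sequence farther upstream than these 250 bases was not searched, so any AHR sites there are not placed.

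On the array, 55.1 to 57.6% of the probes of each array were detected, meaning that their detection p-value was below 0.05. Levels below are normalized log2 intensities, given as mean ± SD (n = 3). Changes are log2 differences, smoke minus control, unless another order is named. A change passed when limma's adjusted p, over all 15490 probes kept, was below 0.05. Only probes detected on at least 3 arrays were kept, which left 4 of the 7 genes (5 of the 8 probes): Cyp1b1, Ahrr, Arnt and Aldh3a1. Ahrr entered through the smoke arrays, since 6 of the 7 arrays that detected it were from smoke-exposed mice. The probes differ in brightness for reasons other than RNA amount, so no gene's level is set against another's. In whole lung, fewer cells of a type and less RNA per cell cannot be told apart. At 4 months 1 of the 4 tested genes rose and none fell, where 1.65% of all 10541 tested genes passed (174 genes, 135 higher and 39 lower). At 6 months 2 of 4 rose and none fell, where 5.08% passed (353 higher and 182 lower). For the average of both ages 2 of 4 rose, where 6.96% passed. Since the dim Ahrr entered through the group in which it was higher, these counts describe the tested genes alone and are not read against those shares. The median change over all tested genes was -0.03 at 4 months and -0.02 at 6 months.

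**Figure D1:**
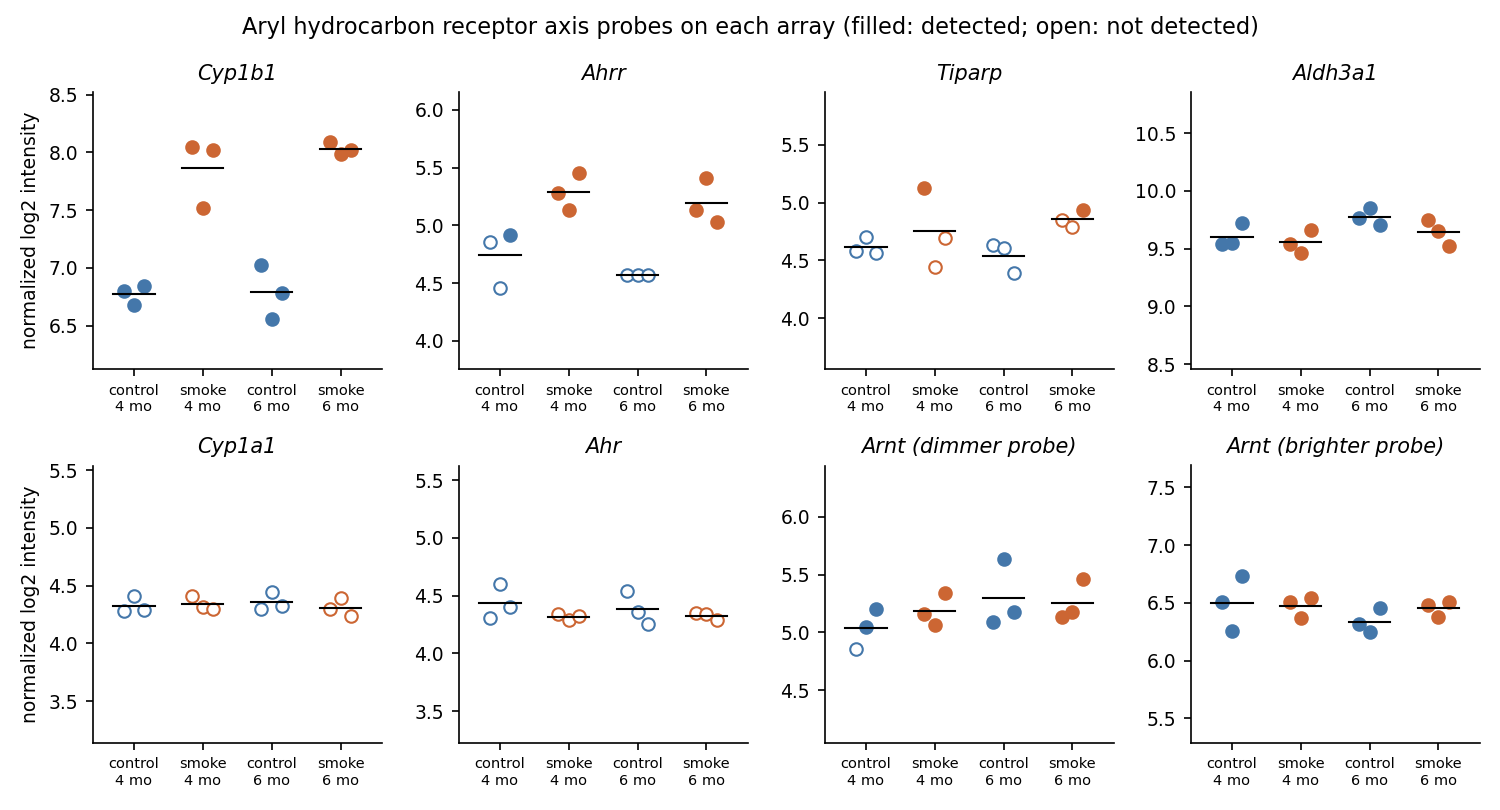
Normalized log2 intensity (y axis, spanning the same range in each panel but starting at different values) of the 8 probes on each of the 12 arrays, by group (x axis); filled points are detected arrays, open points are not, and lines are group means. Cyp1b1 and Ahrr are the panels in which the smoke arrays (orange) lie above the control arrays (blue) at both ages.

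CYP1B1 oxidises polycyclic aromatic hydrocarbons and steroid hormones, and its gene is a direct AHR target. Its probe (ILMN_1232716) was detected on 12 of 12 arrays. At 4 months the normalized log2 values of Cyp1b1 were 8.05, 7.52 and 8.02 in smoke replicates 1 to 3 and 6.80, 6.67 and 6.84 in control replicates 1 to 3. At 6 months its log2 values were 8.09, 7.98 and 8.02 in smoke and 7.03, 6.56 and 6.78 in control replicates 1 to 3. The lowest smoke array, replicate 2 at 4 months, still lay above the highest control array, replicate 1 at 6 months. The raw intensities of Cyp1b1 before normalization separated the groups too, at 185 to 307 on the smoke arrays and 66 to 124 on the control arrays.

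The mean log2 level of Cyp1b1 was 7.86 ± 0.30 in smoke and 6.77 ± 0.09 in control lungs at 4 months (n = 3). The change was 1.09 (SE 0.15, 95% confidence interval 0.76 to 1.42), with an adjusted p of 0.00256 in limma. At 6 months the mean level was 8.03 ± 0.05 against 6.79 ± 0.24 (n = 3). The change was 1.24 (SE 0.15, interval 0.91 to 1.57), with an adjusted p of 0.000495 in limma. The offset added before the log scale makes these changes smaller than the change in intensity itself. Averaged over both ages, the change in Cyp1b1 was 1.17 (interval 0.93 to 1.40, limma adjusted p = 2.76e-05). The effect at 6 months minus that at 4 months was 0.15, with an interval from -0.32 to 0.62 (limma adjusted p = 0.852), so an effect larger by up to 0.62 or smaller by up to 0.32 at 6 months is inside the error. Separation of the 3 smoke from the 3 control arrays at one age is by itself frequent here: the groups did not overlap for 21.4% of tested genes at 4 months and for 21.7% at 6 months.

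**Figure D2:**
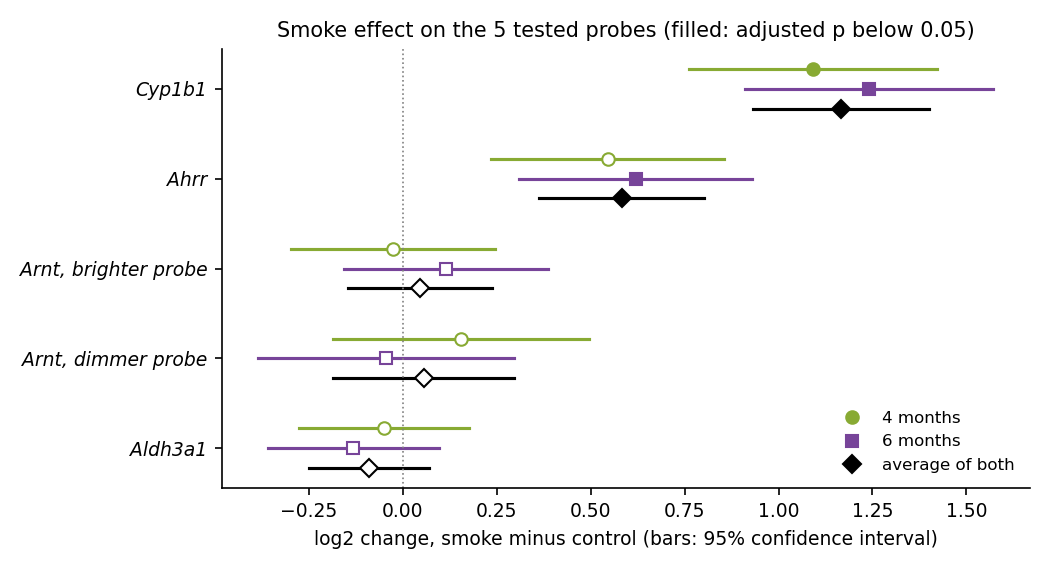
Change in normalized log2 intensity, smoke minus control (x axis), for the 5 tested probes, with 95% confidence intervals as bars; circles are 4 months, squares 6 months and diamonds the average, filled where the adjusted p was below 0.05. The Cyp1b1 intervals lie between 0.76 and 1.57, and those of Arnt and Aldh3a1 include 0.

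AHRR is built like AHR but represses, and its gene is switched on by AHR itself. Its probe (ILMN_2729783) was dim. Raw intensities of Ahrr at 4 months were 29, 22 and 33 in smoke replicates 1 to 3 and 12, 0 and 16 in control replicates 1 to 3. At 6 months its raw intensities were 15, 24 and 15 in smoke and 5, 4 and 4 in control replicates 1 to 3. Every smoke array detected the probe, while 1 of 6 control arrays did: replicate 3 at 4 months, with a detection p-value of 0.0338. The smoke and control arrays of the same age did not overlap at either age in normalized values, which the background shares above also cover.

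At 4 months the mean log2 level of Ahrr was 5.29 ± 0.16 in smoke and 4.74 ± 0.25 in control lungs (n = 3). Its change of 0.55 (SE 0.14, interval 0.24 to 0.86) did not pass, with an adjusted p of 0.0979 in limma. At 6 months the levels were 5.19 ± 0.20 and 4.57 ± 0.0030 (n = 3), and the change of 0.62 (SE 0.14, interval 0.31 to 0.93) passed with an adjusted p of 0.0270 in limma. Since no control array of 6 months detected Ahrr, its value there is a bound and the rise is best given as at least 1.22-fold, against the lowest detected signal on those arrays. The 6-month call was lost, at limma adjusted p-values of 0.0655 to 0.117, when smoke replicate 2 or any 1 of the 3 control replicates of that age was left out. It was also lost with an offset of 50 (limma adjusted p = 0.0724). At 4 months, leaving out control replicate 3, the detected one, brought the adjusted p to 0.0481 in limma. The average over both ages was 0.58 (interval 0.36 to 0.80, limma adjusted p = 0.00388) and passed in each of the 22 alternative settings in which it was computed. It rests on the same control values at or near background, and on a probe kept through the smoke arrays. Its size therefore depends on the processing and is not a measured fold: it ran from 0.28, with an offset of 50, to 0.63 over those settings. The effect on Ahrr at 6 months minus that at 4 months was 0.07 in the fit (interval -0.36 to 0.51, limma adjusted p = 0.930), a value that rests on the control level known only as a bound.

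TIPARP, the other inhibitor, had a probe (ILMN_2589291) at the edge of detection. Its raw intensities at 4 months were 24, 0 and 9 in smoke replicates 1 to 3 and 5, 8 and 5 in control replicates 1 to 3. At 6 months its raw intensities were 10, 10 and 13 in smoke and 7, 5 and -2 in control replicates 1 to 3. Tiparp was detected on smoke replicate 1 at 4 months (detection p-value 0.0125) and smoke replicate 3 at 6 months (0.0338), and on none of the 6 control arrays. The other 6-month smoke arrays were just above the limit, with detection p-values of 0.0614 and 0.0627. At 4 months the highest and the lowest value both belonged to smoke arrays. With both groups at or near background, no fold and no test are given for Tiparp.

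CYP1A1 oxidises aromatic hydrocarbons, and its RNA is a widely used readout of AHR activity. The single Cyp1a1 probe (ILMN_2613985) gave raw intensities of -13 to -2 on the 6 smoke arrays and -9 to 0 on the 6 control arrays. Its detection p-values ran from 0.469 to 0.985 over the 12 arrays. Smoke and control arrays overlapped, and no array lifted the probe above the negative controls. The Ahr probe (ILMN_2737460) behaved alike, with raw intensities of -9 to -4 on smoke arrays and -10 to 5 on control arrays, and detection p-values from 0.223 to 0.956. For Cyp1a1 and for the receptor's own RNA these probes therefore give a level not above background in all 4 groups, and no direction. A single probe that stays dim does not show that the RNA was absent.

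**Figure D3:**
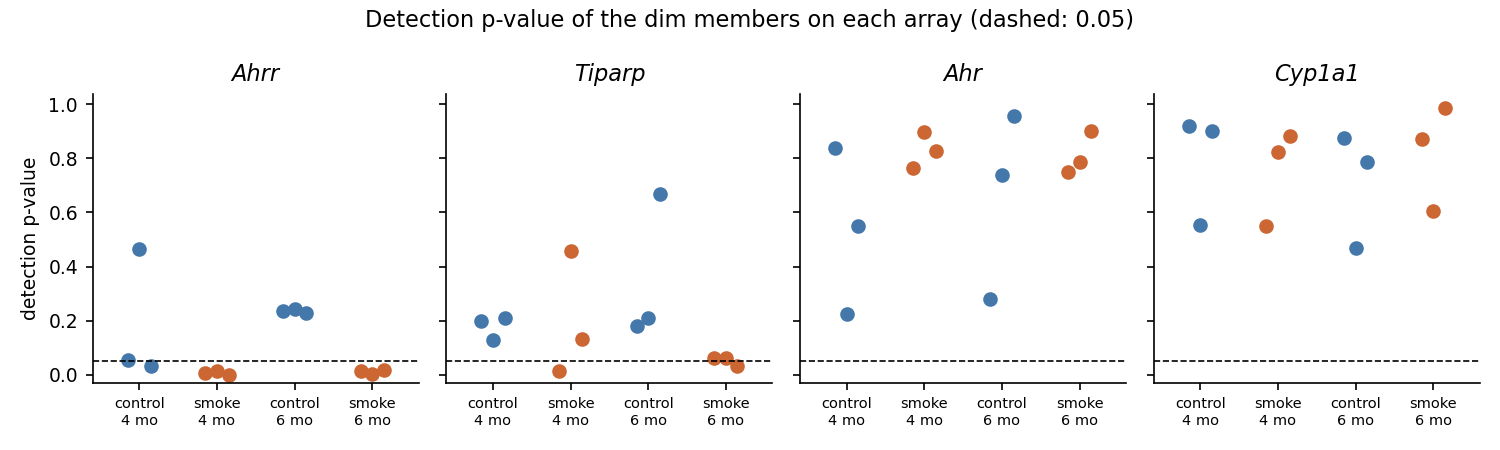
Detection p-value (y axis) of the 4 dim genes of the axis on each of the 12 arrays, by group (x axis; blue control, orange smoke); the dashed line marks 0.05. All 6 smoke arrays lie below the line for Ahrr, 2 of 12 arrays do for Tiparp, and none do for Ahr or Cyp1a1.

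ARNT is the shared partner of AHR and of the hypoxia-inducible factors. Its brighter probe (ILMN_2728802) was detected on 12 of 12 arrays. The mean log2 level was 6.47 ± 0.09 in smoke and 6.50 ± 0.24 in control lungs at 4 months, and 6.45 ± 0.07 against 6.34 ± 0.11 at 6 months (n = 3). The change in Arnt was -0.03 (interval -0.30 to 0.24, limma adjusted p = 0.945) at 4 months and 0.12 (interval -0.16 to 0.39, limma adjusted p = 0.730) at 6 months. The dimmer probe (ILMN_2607563), detected on 11 arrays, changed by 0.15 (interval -0.19 to 0.49) and -0.04 (interval -0.38 to 0.30), with limma adjusted p-values of 0.682 and 0.938. Smoke and control arrays overlapped for both probes at both ages. The 2 probes had opposite signs at each age. The sign of the brighter probe's value at 4 months and of the dimmer probe's value at 6 months changed with the settings, while the other values kept theirs. Over both probes and ages, the intervals span changes from -0.38 to 0.49.

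ALDH3A1 oxidises aldehydes of smoke and lipid peroxidation, and its gene is an AHR target in rodent liver and tumours. Its probe (ILMN_1253178) was detected on 12 of 12 arrays. Normalized log2 values of Aldh3a1 at 4 months were 9.54, 9.46 and 9.66 in smoke replicates 1 to 3 and 9.54, 9.55 and 9.72 in control replicates 1 to 3. At 6 months its log2 values were 9.75, 9.65 and 9.52 in smoke and 9.76, 9.85 and 9.70 in control replicates 1 to 3. The groups overlapped at both ages. The change was -0.05 (interval -0.28 to 0.18, limma adjusted p = 0.862) at 4 months and -0.13 (interval -0.36 to 0.10, limma adjusted p = 0.609) at 6 months. Any rise of Aldh3a1 above 0.18 at 4 months or 0.10 at 6 months is outside these intervals, while the whole interval of Cyp1b1 lies above 0.76. That difference between genes was not itself tested.

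The 5 tested probes were also compared one by one with a two-sided exact permutation test that exchanged arrays within each age (400 arrangements, smallest possible p 0.005). Cyp1b1 (mean change 1.17) and Ahrr (0.58) both reached that smallest exact p of 0.005. That value arises whenever all smoke arrays lie above, or all lie below, the control arrays of their age at both ages. It therefore restates the separation given above and adds no further support. The share of all tested genes separated in this way at both ages was not counted. The Ahrr probe was kept through the smoke arrays and was at or near background on the control arrays. Its exact p carries that limit, and that of Cyp1b1 does not. The exact p was 0.135 for Aldh3a1, 0.61 for the brighter and 0.64 for the dimmer Arnt probe. These p-values are not adjusted. The test was computed for all 8 probes, and the values of Cyp1a1, Ahr and Tiparp are not given because those probes were at or near background. In the authors' deposited normalized table the same exact test gave 0.005 for Cyp1b1 and Ahrr, with mean changes of 1.06 and 0.49. There too the value stands for separation at both ages and nothing more.

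Age on its own was compared within each treatment. None of the 4 tested genes passed between 6 and 4 months in control or in smoke-exposed lungs in limma, and 0 had an unadjusted p below 0.05 in either comparison. Over all tested genes 0.0569% passed in control lungs (6 genes) and 0.019% in smoke-exposed lungs (2 genes), and 17.8% and 10.8% had an unadjusted p below 0.05. Cyp1b1 changed by 0.02 (interval -0.31 to 0.35) with age in control lungs and by 0.17 (interval -0.16 to 0.50) in smoke-exposed lungs, 6 minus 4 months. Ahrr changed by -0.10 (interval -0.41 to 0.21) with age in smoke-exposed lungs. It has no value here for control lungs, where 1 of 6 arrays detected it. The smoke effect did not differ between the ages beyond the threshold for any of the 4 genes in limma, with 0 at an unadjusted p below 0.05, and 0% of all tested genes passed that test (8.3% at an unadjusted p below 0.05).

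The rest of the pathway was read from lists of genes by role, chosen with earlier results of these data known. Counts from these lists therefore describe the listed genes alone. Upstream of the receptor, 2 of the 5 genes of its cytosolic complex were tested, and neither passed at either age. Hsp90aa1, a chaperone that holds AHR ready for ligand, changed by 0.59 at 4 months and -0.10 at 6 months, with limma adjusted p-values of 0.288 and 0.905. Ptges3, the co-chaperone p23, changed by 0.18 and -0.22 (limma adjusted p = 0.695 and 0.660). At an unadjusted p below 0.05, 1 of these 2 genes was counted at 4 months and 0 at 6 months, where 14.8% and 17.4% of all tested genes were.

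Among the makers and breakers of tryptophan metabolites, some of which bind AHR, 4 of 6 genes were tested. At 4 months 1 of the 4 rose, and at 6 months 2 rose and none fell, where 1.65% and 5.08% of all tested genes passed. The median change was 0.47 and 0.67. Kynu, kynureninase, which breaks down kynurenine, rose by 1.06 at 4 months (limma adjusted p = 0.00373) and 1.23 at 6 months (limma adjusted p = 0.000625). Its mean log2 level went from 6.30 ± 0.22 to 7.36 ± 0.32 and from 6.44 ± 0.11 to 7.67 ± 0.09 (n = 3). Il4i1, an amino acid oxidase that turns tryptophan into indole compounds that activate AHR, rose by 2.10 at 6 months, from 7.45 ± 0.42 to 9.55 ± 0.32 (n = 3, limma adjusted p = 0.00416). Its change of 0.96 at 4 months did not pass (limma adjusted p = 0.246), where the control arrays spread widely at 8.07 ± 0.87 (n = 3), and the difference between the ages did not pass (limma adjusted p = 0.592). Ido1, which makes kynurenine's precursor from tryptophan, changed by -0.48 and -0.55, short of the threshold at each age, and fell by 0.51 in the average over both (limma adjusted p = 0.0327). The Ido1 average passed in 13 of 22 alternative settings. Ido2, its relative, changed by -0.01 and 0.11 (limma adjusted p = 0.983 and 0.802).

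Downstream, 5 of the 10 other battery enzymes and reported targets were tested. At each age 1 of the 5 rose and none fell, where 1.65% and 5.08% of all tested genes passed. The median changes were 0.42 and 0.32. Nqo1, a quinone reductase that answers both to AHR and to the oxidant sensor NRF2, rose by 0.72 at 4 months, from 5.66 ± 0.26 to 6.37 ± 0.10 (n = 3, limma adjusted p = 0.0208). At 6 months its change of 0.50 did not pass (limma adjusted p = 0.0643), and the average of 0.61 did (limma adjusted p = 0.00234). The 4-month call for Nqo1 was lost without any 1 of the 3 smoke arrays of that age, at limma adjusted p-values of 0.0528, 0.0954 and 0.105. A second Nqo1 probe was not detected on any array. Slc7a5, a transporter of large neutral amino acids, rose by 0.64 at 6 months, from 8.28 ± 0.16 to 8.92 ± 0.11 (n = 3, limma adjusted p = 0.00983), a call that was lost without smoke replicate 3 (limma adjusted p = 0.0565). Slc7a5 changed by 0.08 at 4 months (limma adjusted p = 0.810), and the difference between the ages did not pass (limma adjusted p = 0.485). Ugt1a6a, a glucuronosyltransferase of phenols whose transcript shares its last exons with other genes of the Ugt1a locus, changed by 0.75 and 0.32 on its brightest probe (limma adjusted p = 0.140 and 0.536), with an average of 0.53 (limma adjusted p = 0.0601) that passed in 5 of 22 alternative settings. The other 2 kept probes of Ugt1a6a changed by 0.85 and 0.41 at 4 months and by 0.36 and 0.55 at 6 months, and their averages passed (limma adjusted p = 0.0264 and 0.0320). Nfe2l2, the gene of NRF2, is in the same list and changed by 0.42 and 0.06 (limma adjusted p = 0.332 and 0.924). Cyp1a2, the liver relative of Cyp1a1, was detected on at most 1 of 12 arrays.

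**Figure D4:**
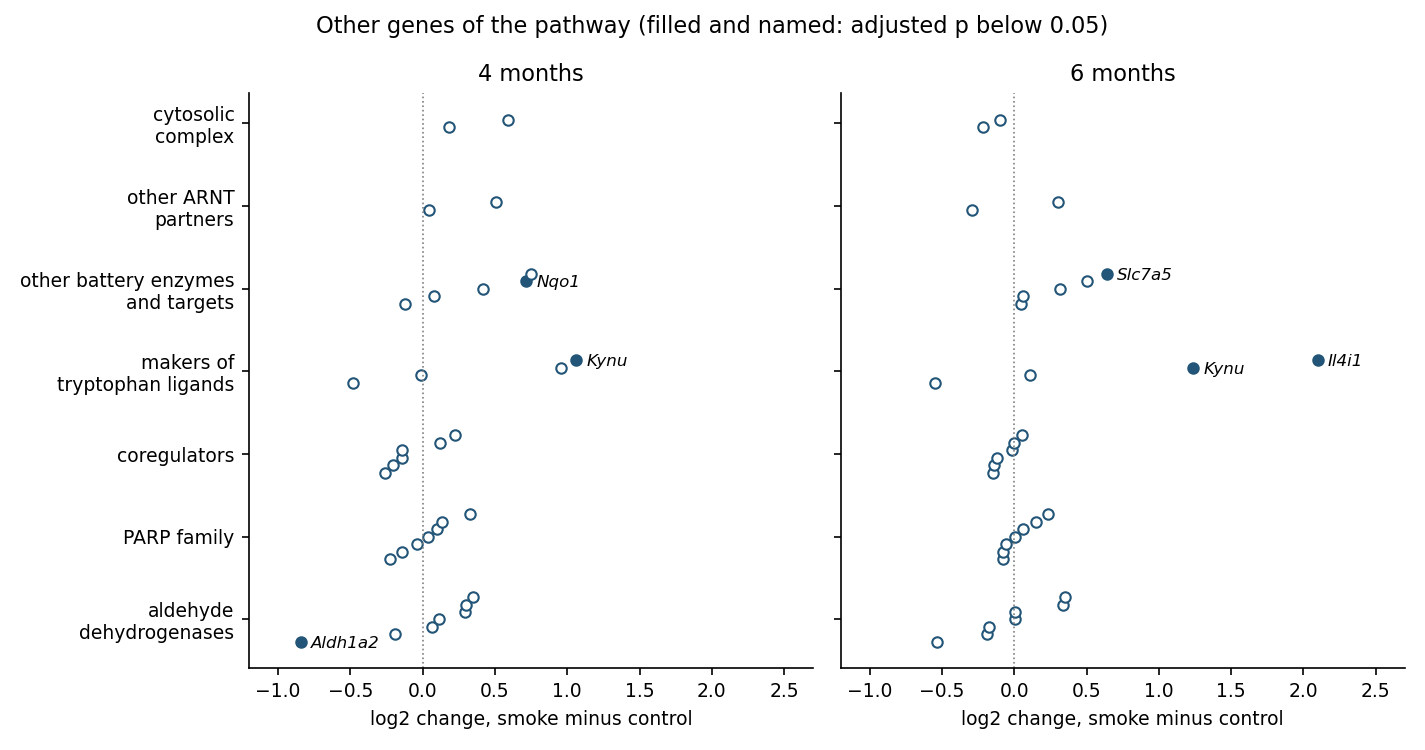
Change in normalized log2 intensity, smoke minus control (x axis), of every tested gene in the 7 pathway lists (y axis), at 4 months (left) and 6 months (right); filled, named points had an adjusted p below 0.05. Nqo1, Kynu and Aldh1a2 are filled at 4 months, and Slc7a5, Kynu and Il4i1 at 6 months.

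Of the other partners of ARNT, 2 of 7 were tested and neither passed at either age. Hif1a, the hypoxia-inducible factor, changed by 0.51 and 0.30 (limma adjusted p = 0.163 and 0.370), and its average rise of 0.41 passed (limma adjusted p = 0.0470) but held in 12 of 22 alternative settings. None of the 6 tested coregulators passed at either age in limma, with 0 at an unadjusted p below 0.05. None of the 7 tested PARP relatives of Tiparp passed either, with 1 at an unadjusted p below 0.05 at 4 months and 0 at 6 months. Over all tested genes the unadjusted shares were 14.8% and 17.4%. Of the 7 tested aldehyde dehydrogenase relatives of Aldh3a1, Aldh1a2, the retinaldehyde dehydrogenase, fell by 0.84 at 4 months (limma adjusted p = 0.0231). Aldh1a2 changed by -0.53 at 6 months (limma adjusted p = 0.102), and its 4-month call was lost without any 1 of the smoke arrays of that age or of control replicates 1 and 2 (limma adjusted p = 0.0537 to 0.121). In the average over both ages Aldh1a2 fell by 0.69 (limma adjusted p = 0.00361), which passed in 22 of 22 alternative settings, and its second probe passed too (limma adjusted p = 0.0330). No tested aldehyde dehydrogenase rose at either age. Aldh3b1, which acts on fatty aldehydes, rose by 0.32 on its brightest probe in the average over both ages (limma adjusted p = 0.0273). That average passed in 17 of 22 alternative settings. The other kept probes of Aldh3b1 changed by 0.20 and 0.10 at 4 months and by 0.24 and 0.34 at 6 months. Their averages did not pass (limma adjusted p = 0.106 and 0.210).

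Macrophage markers rose in the same arrays as Cyp1b1. Of 8 tested markers, 7 rose at 4 months and 8 at 6 months, with median changes of 1.38 and 1.61. Over all tested genes 1.65% and 5.08% passed. The markers too were chosen with earlier results of these data known. Their summed normalized intensity was 6632 to 9822 in control and 20540 to 24740 in smoke-exposed lungs at 4 months, and 7607 to 8722 against 20450 to 25840 at 6 months. On this linear scale the brightest markers weigh most, so the sum does not stand for all 8 alike. In smoke-exposed lungs at 4 months these were Chil3 and Gpnmb (mean log2 levels 13.33 and 12.95), and in control lungs Chil3 (12.57). Within the smoke groups replicate 2 had the lowest log2 Cyp1b1 and the highest marker sum at both ages (7.52 and 24737 at 4 months, 7.98 and 25842 at 6 months). Within the control groups the array with the highest marker sum also had the highest Cyp1b1 (replicate 3 at 4 months with 9822 and 6.84, replicate 1 at 6 months with 8722 and 7.03). The 6-month smoke arrays lay close together in Cyp1b1, from 7.98 to 8.09. Ranks of 3 arrays cannot show a relation between Cyp1b1 and the sum, and none was tested. The 4 tested club cell markers, of the airway cell rich in cytochrome P450 enzymes, did not pass at either age, and their sums overlapped (49880 to 57470 in control and 49930 to 50920 in smoke at 4 months, 51900 to 55210 and 49040 to 53270 at 6 months). Scgb1a1 and Cyp2f2 make up most of these sums, with mean log2 levels of 14.68 to 14.72 and 14.29 to 14.43 over the groups. Whether probes that bright could show a rise was not tested. The lung markers of alveolar type 2 cells were detected on all 12 arrays, and none of 5 passed at either age. In the average over both ages Lamp3, 1 of these 5, rose by 0.37 (limma adjusted p = 0.021). The type 2 sums did not overlap at 4 months (37250 to 38920 in control and 39680 to 44490 in smoke). They overlapped at 6 months (36060 to 37810 and 35800 to 37970). Of the squamous markers of neighbouring airway or oesophagus, none of 5 was detected on more than 2 arrays. Among the markers of other lung and neighbouring cells, Tek of endothelium fell by 0.53 (1 of 4 tested, limma adjusted p = 0.0480) and Pdgfra of fibroblasts by 0.54 (1 of 5 tested, limma adjusted p = 0.0456) at 6 months. The other tested endothelial markers, Pecam1, Cdh5 and Tie1, changed by -0.28, -0.41 and -0.41 at 6 months, and none of them passed. In the average over both ages Tie1 fell by 0.38 (limma adjusted p = 0.034). The fibroblast markers did not move together. At 6 months Col1a1 and Col1a2 changed by 0.32 and 0.44, and Dcn and Tcf21 by -0.05 and -0.25, none of which passed. In the average over both ages Col1a2 rose by 0.39 (limma adjusted p = 0.0436) and Pdgfra fell by 0.36 (limma adjusted p = 0.0484). Cidec of adipocytes fell by 1.43 at 4 months (1 of 3 tested, limma adjusted p = 0.0294). The part of any of these markers in the Cyp1b1 and Ahrr results was not tested.

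**Figure D5:**
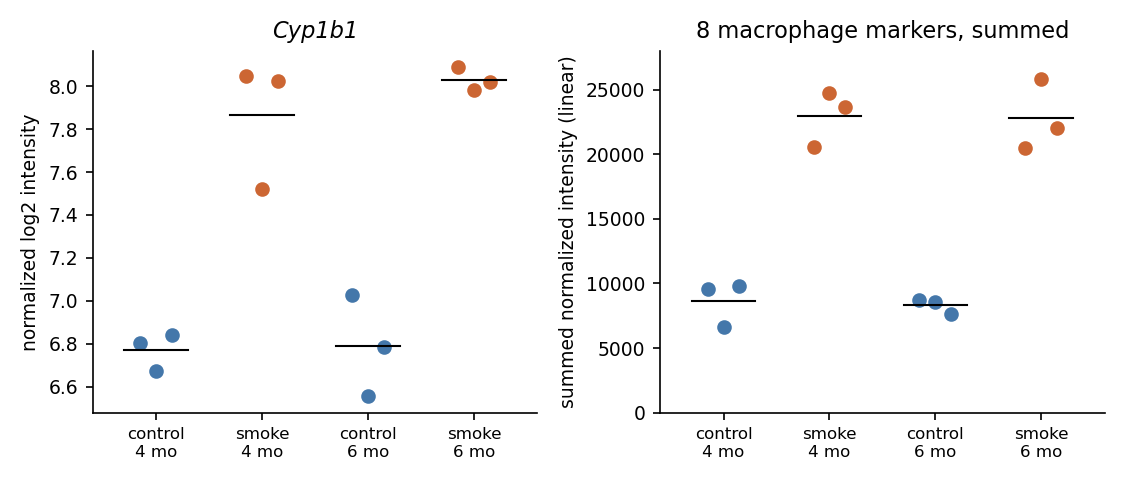
Left, normalized log2 intensity of Cyp1b1 on each array; right, the summed normalized intensity on a linear scale of 8 macrophage markers on the same arrays, by group (x axis); lines are group means. Smoke arrays (orange) lie above control arrays (blue) in both panels, at 7.52 or more for Cyp1b1 and at 20540 or more (4 months) and 20450 or more (6 months) for the markers.

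The genes whose pattern over the 12 arrays lay closest to Cyp1b1 were found by the root mean square difference of log2 values after each probe's own mean was subtracted. They were Ctsz, a lysosomal cathepsin (difference 0.18), Lgals3, galectin-3 (0.19), and Itgb2, an integrin chain of leukocytes (0.21), against a standard deviation of Cyp1b1 over the arrays of 0.63. These genes changed by 1.01, 0.88 and 1.01 at 4 months and by 1.26, 1.12 and 1.10 at 6 months. For Ahrr, with a standard deviation of 0.35, the closest were Tnni2, a troponin subunit of fast muscle (0.11), Chil1, a chitinase-like protein (0.13), and Tmem268 (0.13). They changed by 0.36, 0.51 and 0.45 at 4 months, where none passed in limma, and by 0.68, 0.84 and 0.67 at 6 months, where each passed. The control values of Ahrr were at or near background, so its closeness is in part to such values. Closeness here is a description over 12 arrays that share the same 4 groups.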

How the data were processed

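Total RNA of lung tissue was labelled with biotin through Illumina TotalPrep, per the labels' protocols. Per the file headers, the authors deposited a raw probe intensity with a detection p-value for each array, and intensities below 0 show that some background had already been subtracted. How that was done, and how the authors' deposited second intensity table was normalized, is not given in the sources used here. Arrays have no read depth, so precision rests on the number of arrays.

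Groups and replicate numbers came from the sample titles. With limma 3.58.1 (R 4.3.3), neqc corrected the raw intensity (negative controls inferred from detection p-values), added an offset of 16, normalized by quantiles and took log2. A probe was kept if its detection p was below 0.05 on 3 or more of the 12 arrays: 15490 probes, 900 of them unnamed, for 10541 named genes. The brightest kept probe by mean level stood for a gene. All arrays entered 1 fit (lmFit and eBayes) with a mean for each group, 8 residual and 4.54 prior degrees of freedom, and two-sided p-values adjusted by Benjamini-Hochberg over the probes kept. The p-values measure the spread between these arrays.

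Symbols came from the platform annotation, updated by gene identifier (23962 of 25697 probes matched; 1719 are unnamed here). A gene that no array of a group detected was given as at least N-fold, against the lowest detected signal on those arrays. The members, the pathway and marker lists, and the rules for naming were chosen with earlier results of these data known. Named are all members, up to 4 tested genes per pathway list with the smallest p for the average, Nqo1, Cyp1a2, and the 3 genes closest to each member that passed. Promoters are of the C57BL/6J reference.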

Additional observations from a re-analysis of the deposited data

How the results depend on the processing

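Cyp1b1 passed at both ages and in the average in every alternative tried, with changes of 0.90 to 1.26 at 4 months and 1.03 to 1.36 at 6 months. The alternatives were no further background correction, an offset of 50, the authors' deposited values, scaling to equal medians, cyclic loess, no detection filter, detection on all 3 arrays of a group, the mean of a gene's probes (which touches Arnt alone among the members), array weights, trended robust variances, a replicate block, the arrays of one age alone, and each array left out. The count of axis genes that passed at 6 months was 1 in place of 2 with an offset of 50 and with the replicate block, and 1 to 2 with an array left out. At 4 months it was 2 in place of 1 with array weights and 1 to 2 with an array left out. Ahrr was the gene that changed sides: at 6 months its limma adjusted p ranged from 0.0111 to 0.117 and it passed in 17 of 23 alternatives, and at 4 months it passed in 2 of 23. The cause was not tested. Over all genes, 648 passed at 4 months with array weights against 174 without, and 87 to 372 with an array left out, the latter without control replicate 3 of that age. At 6 months 273 to 594 passed with an array left out, against 535 with all.

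Several values near 0 changed sign. The 4-month change of the brighter Arnt probe was 0.0346 with scaling to equal medians, 0.0639 as the mean of both probes, and -0.1475 to 0.0921 with an array left out, and its average was -0.0158 to 0.1036. Its age difference was -0.0281 as the mean of both probes. The dimmer Arnt probe at 6 months changed by 0.0223 with array weights and by -0.1483 to 0.1247 with an array left out. Aldh3a1 at 4 months changed by -0.1014 to 0.0102 with an array left out. The age difference of Ahrr was -0.0281 with cyclic loess and -0.0351 to 0.2160 with an array left out, and that of Cyp1b1 was -0.0223 to 0.2683. Slc7a5 at 4 months changed by -0.0139 with array weights. The cause was not tested.

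Replicate numbers are shared between the groups, but deviations of same-numbered smoke and control arrays correlated at -0.11 to 0.23, so the numbers were not taken as pairs. With the number as a replicate block, the 6-month adjusted p of Ahrr was 0.0535 and the averages of Ido1 and Hif1a no longer passed. Low signal over background limits Cyp1a1, Ahr and Tiparp in all 4 groups and Ahrr in the control groups.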
